A study of Ursus arctos with 5 samples.

Results

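The proteins that cut introns out of messenger RNA, and the helicases that unwind RNA or rearrange RNA-protein complexes, were followed in the gastrocnemius of grizzly bears (Ursus arctos), once in activity (October) and once in hibernation (February). The members were all assembled transcripts whose assigned human gene name begins with SRSF, SFRS, HNRNP, SF3, SNRNP, SNRP, PRPF, U2AF, RBFOX, MBNL or CELF, is SF1, or begins with RBM, DDX, DHX or LSM followed by the letters or digits of a family member. This rule uses names alone and gave 185 transcripts of 78 genes, among 26614 deposited transcripts, of which 9093 carry the name of 1 of 4873 genes.

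Introns are removed by the spliceosome, a machine built on each intron from U snRNPs, particles of a small nuclear RNA with its proteins. SR proteins and hnRNPs bind exons and introns and set which splice sites are used, and muscle relies on further regulators of the MBNL, CELF and RBFOX families for its adult protein isoforms. RNA helicases with a DEAD or a DEAH motif use ATP to open RNA duplexes or to displace proteins, in splicing and also in ribosome assembly, export, translation and decay.

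Biopsies came from 2 bears, 1 subadult and 1 adult, each sampled in both states, and each biopsy gave 1 single-end Illumina library, 4 in all. The sample labels call every animal adult and put both bears of a state in 1 sample, whereas the columns of the deposited values separate the bears. The active animals were fed, while the hibernating ones had been without food since November, lived in unheated dens, and were darted with a lower dose of anesthetic, so food, season, temperature, inactivity and dose cannot be told apart. All animals were captive and untreated apart from the anesthesia, and no other agent or allele is named. Aligned reads, inferred from the steps in the deposited values, were between 44.7 and 54.2 M per library (M, mega), and a member transcript had a median of 422 to 700 reads in a library and at least 29.7. The skeletal muscle markers TTN, MYH1, MYH2 and MYH7 together took 24114 to 34972 reads per M in the 4 libraries. The other 6 of 10 listed muscle markers, ACTA1, CKM, MB, DES, TNNT1 and TNNT3, were not found under these names. Of the other cell types, 0 of 5 fat cell, 1 of 5 endothelial, 2 of 5 fibroblast and 1 of 6 blood and immune markers were found. As muscle markers were missing too, a marker not found does not show that its cell type was absent. Summed reads of the muscle markers went from 29458 to 24114 per M in the subadult and from 34972 to 33292 per M in the adult, lower in hibernation in each bear. The single markers did not all go this way. TTN, MYH1 and MYH7 were lower in each bear with overlapping states. MYH2 was higher without overlap, going from 2755 to 3841 RPKM (subadult) and from 3493 to 3863 RPKM (adult). Of the fibroblast markers, COL3A1 went from 116 to 254 RPKM (subadult) and from 136 to 210 RPKM (adult), and of the blood and immune markers, CD68 went from 3.94 to 6.41 RPKM (subadult) and from 3.28 to 7.12 RPKM (adult), both higher in hibernation without overlap. The other fibroblast marker, COL1A1, stood at 193 RPKM in the active subadult and at 6.79 to 10.95 RPKM elsewhere, and summed fibroblast markers were at 1464 reads per M in that library against 325 to 384 in the others. COL1A1 thus moved in opposite directions in the bears. So did the endothelial marker PECAM1, with 13.0 and 10.8 RPKM in the active and the hibernating subadult and 7.53 and 11.6 RPKM in the active and the hibernating adult. Of the single markers found, COL3A1, CD68 and MYH2 separated the states. The part of any of these markers in the members' values was not tested.

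Values are RPKM, read counts divided by the length of the transcript and by the library's total of aligned reads, and a log2 change is the difference of log2(RPKM + 0.5) between the hibernating and the active library of a bear, so that 0.58 is a 1.5-fold difference on that scale, and the change of low transcripts is understated. Values given as going from one level to another run from activity to hibernation. The mean of both bears' changes is meant where no bear is named. As bulk biopsies were sequenced, a lower share of a cell type and less RNA per cell cannot be told apart.

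The member transcripts were, on the whole, slightly more abundant in hibernation than in activity. Together they took 0.329% of the aligned reads in the active and 0.392% in the hibernating subadult, and for the adult 0.321% and 0.394%. The median log2 change of the members was 0.24 (subadult 0.18, adult 0.29), against 0.12 over all 26614 transcripts (0.10 and 0.16). A member was higher in hibernation in both bears for 114 of 185 transcripts (61.6%, against 45.8% of all transcripts) and lower in both for 12 (6.49%, against 17.9%).

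A stricter count asked that both hibernating libraries lie above both active ones, or below both, and such states are called separated. Both hibernating libraries lay above both active ones for 87 of 185 members (47.0%), where 33.6% of all transcripts met it. Both hibernating libraries lay below both active ones for 5 members (2.70%), 4 transcripts of MBNL1 and the 1 of DHX9, where 8.4% of all transcripts met it. Taking each gene by its transcript with the most reads, 37 of 78 member genes lay above (47.4%) and 2 below (2.56%), against backgrounds of 35.8% and 8.11% of 4873 genes. With the reads of all transcripts of a gene summed, 39 lay above (50.0%) and 2 below, against 35.7% and 7.98%. How these sums treat a read that fits several transcripts is not stated in the sources. MBNL1 and DHX9 were the genes below in both counts.

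Large changes were few. On the log2(RPKM + 0.5) scale, a difference of at least 1.5-fold upward in hibernation in both bears was found for 9 members, 5 transcripts of RBM3, 3 of U2AF1L4 and 1 of SNRPA1, where the background was 4.28% of all transcripts, and one of that size downward for 0 members, with a background of 0.834%. As plain ratios of RPKM 11 members were 1.5-fold higher in both bears, the same 9 with 2 transcripts of HNRNPK, against 5.93% of all transcripts, and 0 were lower by that factor, against 1.19%. A score built after the description of NOISeq, the share of the differences between bears within a state that were no larger, in ratio and in size, than the transcript's difference between states, reached 0.8 for 5 members, all of RBM3, against 3.7% of all transcripts. In limma's test over all 26614 transcripts 0 members passed an adjusted p of 0.05 and the background was 0%, with 14 members (7.57%) and 2237 transcripts (8.41%) at an unadjusted p under 0.05. The lowest adjusted p of a member was 0.577, and with 2 libraries against 2 a two-sided exact permutation test of a single value cannot go below 0.333.

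These counts depend on how the libraries are scaled, in members and in the whole table. Dividing each library by the median ratio of its transcripts lowered the median change of all transcripts by 0.15 to -0.021, and dividing by the upper quartile lowered it by 0.18 to -0.055. With the median ratio 51 members lay above (27.6%, against 19.9% of all transcripts) and 23 below (12.4%, against 17.7%). With the upper quartile 47 lay above (25.4%, against 18.0%) and 28 below (15.1%, against 19.9%). By gene, 20 of 78 lay above with the median ratio (25.6%, against 20.4% of 4873 genes) and 11 below (14.1%, against 17.1%), and with the upper quartile 17 above (21.8%, against 18.4%) and 14 below (17.9%, against 19.6%). The members' median was 0.12 over that of all transcripts as deposited, and by gene 0.095 over that of annotated genes, distances that a division of whole libraries leaves nearly unchanged by construction. The plot of the shares by scaling shows the members' right-hand bar longer than that of all transcripts in each pair, and their left-hand bar shorter.

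**Figure D1:**
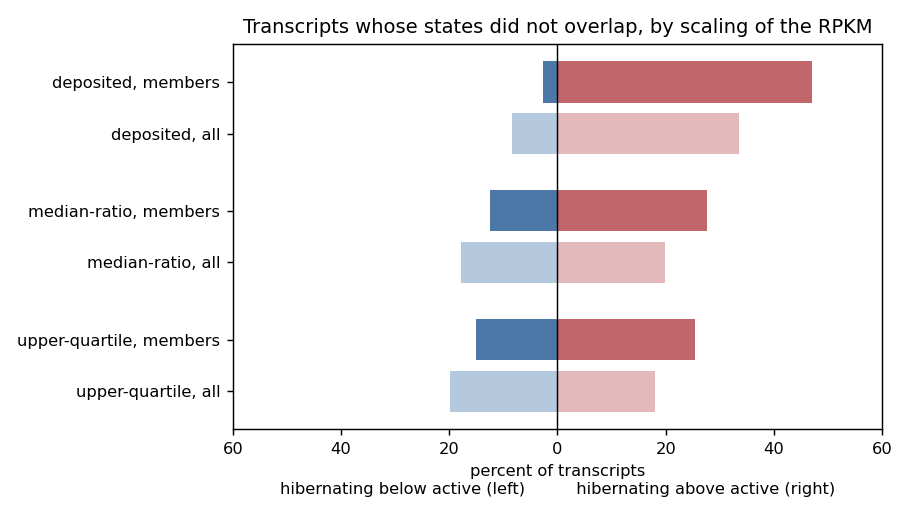
Percent of transcripts whose 2 hibernating libraries lie above (bars to the right) or below (bars to the left) both active libraries, for the 185 members and for all 26614 transcripts, with RPKM as deposited, with median-ratio scaling and with upper-quartile scaling. The members' share above goes from 47.0% to 27.6% and 25.4%, and that of all transcripts from 33.6% to 19.9% and 18.0%.

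By class, the medians over transcripts were highest for hnRNPs (0.45, 26 transcripts of 6 genes) and for the factors that mark the branch point and the 3' splice site (0.41, 14 of 6), followed by U snRNP proteins with the Sm and LSm rings (0.28, 22 of 13) and PRPF proteins (0.28, 12 of 7). RBM proteins (0.17, 33 of 13), DEAH-box helicases (0.15, 7 of 6), tissue regulators (0.13, 18 of 6) and DEAD-box helicases (0.11, 40 of 17) were close to the median of all transcripts, and SR proteins (0.017, 13 of 4) were under it. The order is another one by gene, since 15 of the DEAD-box transcripts are of DDX17 and 6 of the SR protein transcripts are of SRSF1. With 1 transcript per gene the medians were 0.32 for hnRNPs, 0.28 for PRPF proteins, 0.27 for branch point factors, 0.25 for DEAD-box helicases, 0.24 for U snRNP proteins, 0.21 for DEAH-box helicases, 0.20 for SR proteins, 0.16 for RBM proteins and 0.047 for tissue regulators. By gene 8 of 9 classes were thus over the median of annotated genes (0.15), RBM proteins barely so, and the tissue regulators were under it. The first 4 classes kept a transcript median above 0 under both other scalings (hnRNPs at 0.29 and 0.25, branch point factors at 0.25 and 0.22, U snRNP proteins at 0.12 and 0.083, PRPF proteins at 0.14 and 0.11 with the median ratio and the upper quartile), while each of the other 5 was below 0 under at least 1. With 1 transcript per gene, 3 of these 5 stayed above 0 with the median ratio and the upper quartile. They were SR proteins (0.047 and 0.013), DEAD-box helicases (0.11 and 0.073) and DEAH-box helicases (0.065 and 0.030). RBM proteins (0.018 and -0.015) did so with the median ratio alone, and tissue regulators (-0.11 and -0.14) were below 0 with both. The gene of a class with the highest mean RPKM by its most-read transcript is called its leading gene. As many transcripts of a class come from the same gene and share reads, the transcripts of a class are not independent values.

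**Figure D2:**
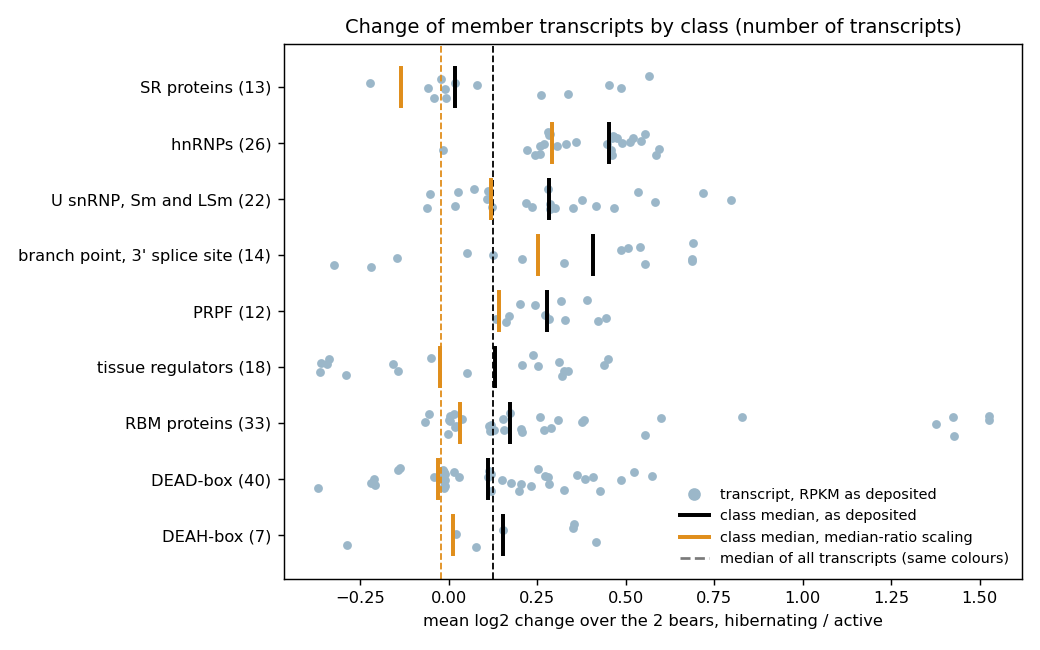
Mean log2 change over both bears (x axis) of each member transcript (points) by class (y axis, with the number of transcripts), with bars giving the class median with RPKM as deposited (black) and with median-ratio scaling (orange), and dashed lines the median of all 26614 transcripts in the same colours. The hnRNP median is 0.45 as deposited and 0.29 with median-ratio scaling, against 0.12 and -0.021 for all transcripts.

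SR proteins, which carry serine-arginine repeats and mostly promote the use of an exon, were represented by 4 genes. SRSF4 (isotig13350) went from 4.19 to 7.09 RPKM (subadult) and from 4.20 to 5.86 RPKM (adult), both hibernating values above both active ones, and all 3 of its transcripts were placed so. SRSF10 (isotig12980), a splicing repressor when it is dephosphorylated, as in heat-shocked cells, went from 4.73 to 6.03 RPKM (subadult) and from 3.08 to 4.86 RPKM (adult). This was the 1 of its 3 transcripts that separated the states, and isotig12981 had a mean change of -0.011. The summed reads of SRSF10 overlapped between the states. The mean changes of these 2 genes were 0.57 (SE 0.24) and 0.45 (SE 0.29), with adjusted p of 0.592 and 0.677 in limma's test. SRSF1 (isotig10445), the prototype of the family, moved in opposite directions in the bears: its level was 5.11 and 3.95 RPKM in the active and the hibernating subadult and 4.23 and 4.99 RPKM in the active and the hibernating adult. SRSF6 (isotig43632), the leading gene of the class, was highest in the active subadult, with 13.6 and 7.65 RPKM in the active and the hibernating subadult and 6.65 and 8.58 RPKM in the active and the hibernating adult. Neither SRSF1 nor SRSF6 separated the states, and the summed reads of the class went from 109.7 to 105 reads per M (subadult) and from 88.7 to 112 reads per M (adult).

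The hnRNPs coat nascent transcripts and often oppose the use of an exon. HNRNPK (isotig01822), which binds cytosine-rich RNA, went from 17.7 to 27.0 RPKM (subadult) and from 17.4 to 26.1 RPKM (adult). HNRNPA1 (isotig01344), a repressor of exon inclusion, went from 12.3 to 16.8 RPKM (subadult) and from 8.85 to 13.7 RPKM (adult). In both genes every transcript (4 of HNRNPK and 10 of HNRNPA1) had both hibernating values above both active ones, with mean changes of 0.45 to 0.59 and 0.46 to 0.56. The change of HNRNPK was 0.58 (SE 0.20, adjusted p 0.577 in limma's test) and that of HNRNPA1 0.52 (SE 0.26, adjusted p 0.619).

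The leading gene of the hnRNPs and the member with the highest RPKM, HNRNPA2B1 (contig02892), a relative of HNRNPA1 that also carries RNA to the cytoplasm, stood at 207 and 165 RPKM in the active and the hibernating subadult and 205 and 251 RPKM in the active and the hibernating adult. Its bears moved in opposite directions by similar amounts, with log2 changes of -0.32 and 0.29. HNRNPUL2, a nuclear protein with an RNA-binding domain, went from 28.3 to 37.1 RPKM (subadult) and from 30.7 to 38.8 RPKM (adult), and its relative HNRNPUL1 had a mean change of 0.28, both with separated states. HNRNPH3 (isotig07280), of the family that binds runs of guanine, went from 3.39 to 3.78 RPKM (subadult) and from 2.37 to 3.15 RPKM (adult), where the hibernating adult lay under the active subadult. All 8 transcripts of HNRNPH3 were higher in the mean (0.22 to 0.33) and 1 of them separated the states. Over the class, 4 of 6 genes lay above and 0 below, against 35.8% and 8.11% of all genes. Under either other scaling 2 of 6 lay above and 0 below. All genes gave 20.4% and 17.1% with the median ratio and 18.4% and 19.6% with the upper quartile. The reads of the class went from 719.8 to 897 reads per M (subadult) and from 641 to 873 reads per M (adult).

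Of the U snRNP proteins, SNRPA1, a protein of the U2 particle, showed the largest difference. Its most-read transcript, isotig07722, went from 6.39 to 8.93 RPKM (subadult) and from 4.95 to 8.40 RPKM (adult), and its transcript isotig07725 went from 5.31 to 8.53 RPKM (subadult) and from 3.98 to 8.22 RPKM (adult). All 4 transcripts had separated states, with mean changes of 0.47 to 0.80, and the score of isotig07725, 0.763, was the highest of any member outside RBM3. SNRPN (isotig20259), an Sm protein made from an imprinted locus, went from 2.25 to 3.76 RPKM (subadult) and from 2.33 to 3.32 RPKM (adult), at low levels, while its close relative SNRPB stood at 2.00 and 1.82 RPKM in the active and the hibernating subadult and 2.85 and 3.71 RPKM in the active and the hibernating adult. As SNRPN and SNRPB are near copies, their reads may have been shared.

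SNRNP70 (isotig03951), the protein of the U1 particle that recognises the 5' splice site, went from 36.8 to 42.1 RPKM (subadult) and from 27.9 to 36.1 RPKM (adult), so that the hibernating adult lay just under the active subadult, although 2 of its 4 transcripts separated the states. SNRPC, also of U1, went from 25.9 to 32.2 RPKM (subadult) and from 24.6 to 27.6 RPKM (adult), with separated states. SNRNP200, the helicase of the U5 particle that unwinds U4 from U6, went from 13.6 to 19.4 RPKM (subadult) and from 15.1 to 17.5 RPKM (adult), also without overlap. SNRNP25 (isotig20274), of the minor spliceosome and the leading gene of the class, showed 45.1 and 51.2 RPKM in the active and the hibernating subadult and 56.4 and 55.0 RPKM in the active and the hibernating adult, a mean change of 0.072 that turned negative under both other scalings.

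The LSm proteins form rings on U6 in the nucleus, and with LSM1 on decaying mRNA in the cytoplasm. LSM2 went from 14.3 to 16.8 RPKM (subadult) and from 15.3 to 19.5 RPKM (adult), whereas LSM6, of the same rings, and LSM1 moved in opposite directions in the bears, with mean changes of -0.053 and 0.027. LSM14A, a component of cytoplasmic P-bodies, had a change of 0.38 and separated states. Over the class, 7 of 13 genes had both hibernating values above both active ones and 0 had them below, against 35.8% and 8.11% of all genes. Under either other scaling 3 were above and 2 below, where all genes gave 20.4% and 17.1% with the median ratio and 18.4% and 19.6% with the upper quartile. The class took from 451 to 554 reads per M (subadult) and from 415 to 511 reads per M (adult).

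Among the factors that find the branch point and the 3' splice site, U2AF1L4, a relative of the small U2AF subunit that reads the end of the intron, was the most uniform. Its transcript isotig02195 went from 3.43 to 5.97 RPKM (subadult) and from 3.78 to 6.26 RPKM (adult), and the mean change was 0.69 (SE 0.24, adjusted p 0.577 in limma's test). All 6 transcripts separated the states, with changes of 0.49 to 0.69. Reads from U2AF1, a close copy, could have been shared with it. The pair of SF1 transcripts, coding for the protein that first binds the branch point, went opposite ways in the mean. Its transcript isotig25369 went from 9.86 to 14.1 RPKM (subadult) and from 14.2 to 21.5 RPKM (adult), the hibernating subadult just under the active adult, and isotig25101 stood at 2.72 and 1.61 RPKM in the active and the hibernating subadult and 2.92 and 3.35 RPKM in the active and the hibernating adult.

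SF3A1, SF3A2, SF3B4 and SF3B5 belong to the complexes that hold U2 at the branch point. SF3A1 (isotig21615) went from 15.6 to 17.6 RPKM (subadult) and from 15.7 to 22.2 RPKM (adult), with separated states. Its other transcript, isotig45104, was low and did not separate the states, with a mean change of -0.15. SF3B5 (isotig20256), the leading gene of the class, went from 22.3 to 24.2 RPKM (subadult) and from 18.1 to 22.3 RPKM (adult). The active values of SF3A2 and SF3B4 lay far apart between the bears, at 7.64 and 3.89 RPKM in the subadult and the adult for SF3A2 and at 10.6 and 20.8 for SF3B4. The hibernating values of the same genes were 4.25 and 4.30 RPKM and 15.1 and 17.6 RPKM. For both genes the sign of the difference was opposite in the bears. SF3B1 was not found under this name.

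PRPF proteins belong to U1, to the tri-snRNP of U4, U6 and U5, or to the catalytic core. All 12 transcripts, of 7 genes, had a positive mean change as deposited (0.13 to 0.44), as did 63.1% of all transcripts, and 8 of them lay above, against 33.6% of all transcripts. With the median ratio 11 were positive and 4 lay above, and with the upper quartile 9 and 4. Of all transcripts 47.7% were positive and 19.9% lay above with the median ratio, and 43.7% and 18.0% with the upper quartile. PRPF6 (isotig21581), which bridges the parts of the tri-snRNP and was the leading gene of the class, went from 18.0 to 23.2 RPKM (subadult) and from 24.2 to 30.0 RPKM (adult), where the hibernating subadult lay under the active adult. PRPF8 (isotig07543), the scaffold around the catalytic centre, stood at 10.6 and 13.8 RPKM in the active and the hibernating subadult and 10.9 and 10.7 RPKM in the active and the hibernating adult, and its mean change was 0.16 as deposited, 0.0031 with the median ratio and -0.034 with the upper quartile. Its shorter transcript contig11596 separated the states as deposited, going from 35.7 to 46.1 RPKM (subadult) and from 35.5 to 47.4 RPKM (adult). The summed reads of PRPF8 did so too, going from 180 to 234 reads per M (subadult) and from 184 to 190 reads per M (adult). PRPF31, which holds U4, went from 13.0 to 17.1 RPKM (subadult) and from 14.0 to 16.9 RPKM (adult), and PRPF40B, which bridges the ends of the intron, went from 4.49 to 6.07 RPKM (subadult) and from 4.14 to 6.02 RPKM (adult), both with separated states. The reads of the class went from 301 to 390.4 reads per M (subadult) and from 322 to 362 reads per M (adult).

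The tissue regulators held genes higher and genes lower in hibernation, 3 of 6 above and 1 below as deposited, against 35.8% and 8.11% of all genes. With the median ratio 2 were above and 3 below, against 20.4% and 17.1%. MBNL1, the muscleblind protein whose capture by repeat RNA disturbs splicing in myotonic dystrophy, was lower in hibernation. Its transcript isotig02258 went from 11.6 to 8.07 RPKM (subadult) and from 10.4 to 8.84 RPKM (adult), a mean change of -0.36 (SE 0.22, adjusted p 0.656 in limma's test). The 4 transcripts, which differ little in length, all had both hibernating values below both active ones (-0.36 to -0.34). Under median-ratio and upper-quartile scaling the change of isotig02258 was -0.52 and -0.56. MBNL2 (isotig10379), its close relative, went from 11.4 to 9.78 RPKM (subadult) and from 9.36 to 8.87 RPKM (adult), lower in each bear but with overlapping states, and 1 of its 3 transcripts had a positive mean change.

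CELF1 (isotig15920), which acts against MBNL1 on a number of muscle exons, was higher, going from 4.80 to 6.73 RPKM (subadult) and from 4.72 to 5.51 RPKM (adult), and both of its transcripts separated the states. CELF6 was at 2.29, 2.27 and 2.40 RPKM in the active subadult, the active adult and the hibernating adult and at 1.27 RPKM in the hibernating subadult, a mean change of -0.29 with opposite signs in the bears. RBFOX1 (isotig07614), a regulator of muscle and neuronal exons, went from 5.38 to 6.20 RPKM (subadult) and from 5.30 to 6.58 RPKM (adult), and 5 of its 6 transcripts separated the states upward, the other having a mean change of -0.050. RBFOX2 (isotig18389), the leading gene of the class, went from 19.7 to 27.9 RPKM (subadult) and from 21.7 to 24.7 RPKM (adult). Mean changes of CELF1, RBFOX1 and RBFOX2 were 0.32, 0.24 and 0.34, with adjusted p of 0.706, 0.752 and 0.665 in limma's test. RBM20, RBM24 and CELF2, further splicing regulators of muscle, were not found under these names.

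**Figure D3:**
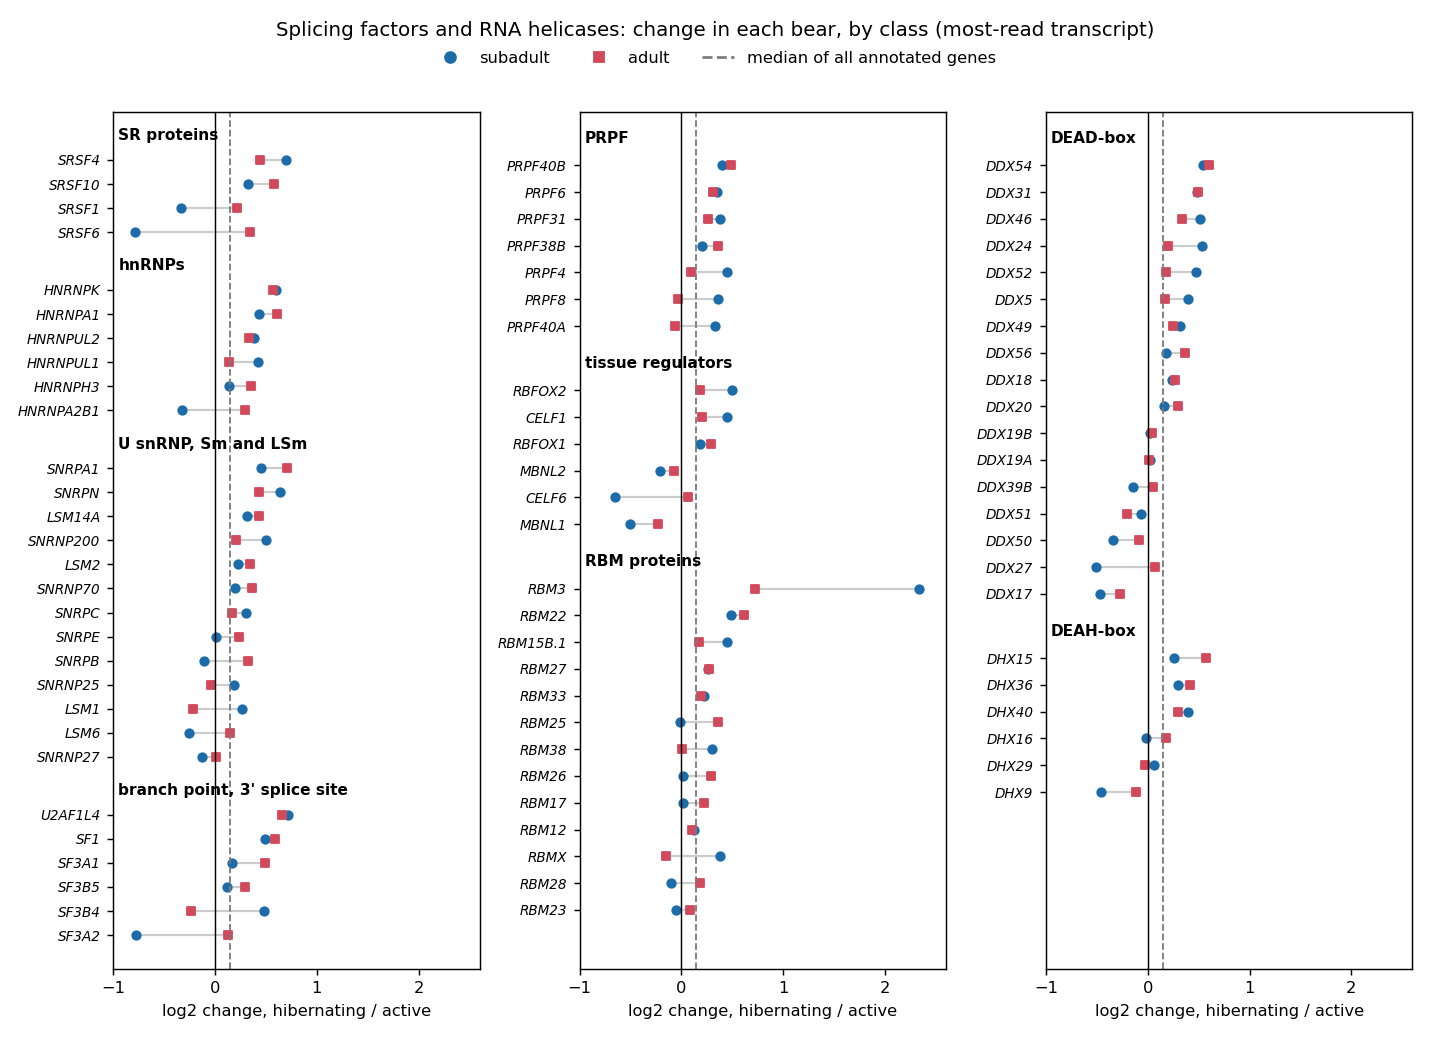
Log2 change (x axis, hibernating over active, RPKM + 0.5) of the most-read transcript of each of the 78 genes in the subadult (circles) and the adult (squares), grouped by class and ordered by mean, with a dashed line at the median of all 4873 annotated genes (0.15). For 51 genes both bears lie to the right of 0, for 6 both lie to the left, and for 21 the bears lie on opposite sides, with RBM3 farthest to the right at 2.33 in the subadult and 0.72 in the adult. Of all 4873 annotated genes 48.7% were higher and 16.1% lower in both bears.

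RBM3, an RNA-binding protein that cells make in the cold and that favours translation, stood apart from every other member. Its transcript isotig06688 went from 6.23 to 33.3 RPKM (subadult) and from 20.0 to 33.2 RPKM (adult), which is 5.35-fold and 1.66-fold in RPKM. The hibernating levels of the bears were nearly the same (ratio of the adult to the subadult 0.996), and the active levels differed 3.20-fold, the active subadult being the lowest. The subadult had a log2 change of 2.33 and the adult one of 0.72, with a mean of 1.53 (SE 0.51), an adjusted p of 0.577 in limma's test and a score of 0.940.

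All 6 transcripts of RBM3 had both hibernating values above both active ones, as the plot of their levels shows. Of the 6, isotig06692 had the highest level, going from 6.82 to 36.3 RPKM (subadult) and from 21.9 to 36.3 RPKM (adult), and isotig06695 the lowest, going from 2.48 to 6.25 RPKM (subadult) and from 4.31 to 6.19 RPKM (adult). The latter was the RBM3 transcript that missed a score of 0.8 (0.739) and a 1.5-fold difference in both bears. With the reads of the 6 transcripts summed, RBM3 had 37.3 and 181 reads per M in the active and the hibernating subadult and 110.2 and 180.1 in the adult. By mean change it ranked 17 of 4873 annotated genes. The active subadult library, whose RBM3 was lowest, was also the one with the highest summed fibroblast markers, whose part in the result was not tested. Without that library the mean change of isotig06688 was 0.72, and 0 members reached a score of 0.8. Without the active adult the change was 2.33. With the 6 RBM3 transcripts left out, the median change of the members was 0.23 and 81 of 179 were higher with separated states.

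**Figure D4:**
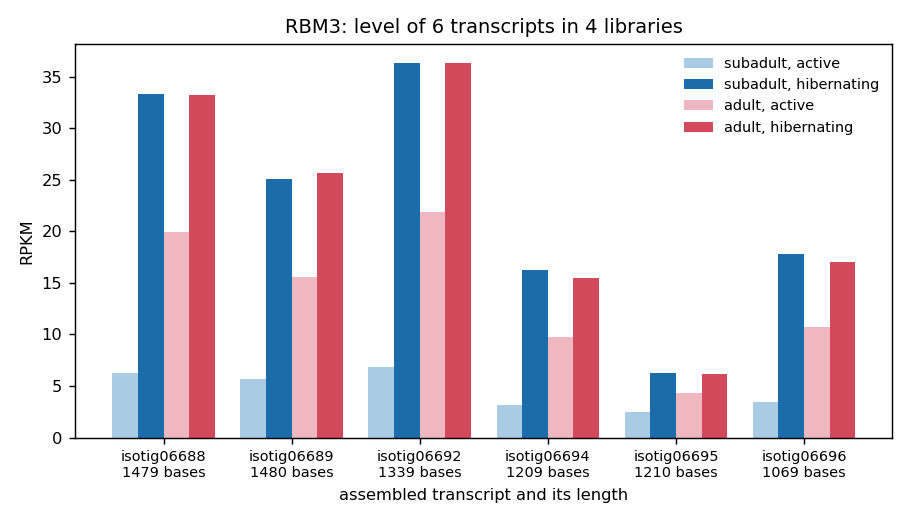
Level (y axis, RPKM as deposited) of the 6 RBM3 transcripts (x axis, with their length) in the 4 libraries, 1 bar per library, with no replicate of a bear within a state. In each transcript the hibernating bars of both bears are close together, at 33.3 and 33.2 RPKM for isotig06688, and the active bar of the subadult is the lowest, at 6.23 RPKM against 20.0 in the adult.

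The other RBM proteins, named only for an RNA-binding motif, had smaller mean differences. RBM22 (isotig23385), which helps to activate the spliceosome, went from 29.0 to 41.0 RPKM (subadult) and from 43.1 to 66.4 RPKM (adult), with the hibernating subadult under the active adult. The other 2 of its 3 transcripts separated the states upward. So did its summed reads, going from 73.2 to 102.2 reads per M (subadult) and from 100.6 to 151.2 reads per M (adult). RBM38 (isotig29142), which stabilises the mRNA of a cell cycle inhibitor and is known from muscle differentiation, differed more between the bears than between the states, with 19.2 and 23.8 RPKM in the active and the hibernating subadult and 44.2 and 44.5 RPKM in the active and the hibernating adult. RBMX (isotig36212), the leading gene of the class and related to hnRNPs, stood at 65.9 and 85.9 RPKM in the active and the hibernating subadult and 119 and 107 RPKM in the active and the hibernating adult, higher in the subadult and lower in the adult. The mean changes of RBM38 and RBMX, 0.16 and 0.11, turned negative under both other scalings.

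The 7 transcripts of RBMX differed widely in level. Beside isotig36212, of 584 bases, the other 6 lay between 2.44 and 9.62 RPKM in all libraries. The upper end was isotig21585, with 3.43 and 9.62 RPKM in the active and the hibernating subadult and 2.79 and 2.44 RPKM in the active and the hibernating adult, so that the hibernating subadult alone was high. RBMX has near-identical copies in mammalian genomes, and the transcripts given its name could come from more than 1 of them. The reads of all RBM proteins together went from 385 to 591 reads per M (subadult) and from 506 to 660.0 reads per M (adult), of which RBM3 took the share given above.

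DEAD-box helicases were the largest class. Of their 17 genes, 12 were higher in both bears, 3 lower in both and 2 opposite in the bears. Of all 4873 genes 48.7% were higher and 16.1% lower in both bears. DDX5 (contig04600), a helicase that also serves as a coactivator of the muscle regulator MyoD, was the leading gene, going from 79.1 to 104 RPKM (subadult) and from 90.3 to 101 RPKM (adult), and both of its transcripts separated the states. DDX17 (isotig06348), its close relative, was lower in each bear, going from 11.4 to 8.10 RPKM (subadult) and from 5.39 to 4.36 RPKM (adult), though the active adult lay below the hibernating subadult. Of the 15 DDX17 transcripts, 11 had a negative and 4 a positive mean change, all between -0.37 and 0.12, and the summed reads of the gene differed in sign between the bears (log2 -0.29 and 0.23). Reads shared among these overlapping transcripts, or with DDX5, leave the change of DDX17 uncertain.

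DDX39B (isotig08612, listed under 3 Ensembl identifiers), which brings U2 to the branch point and later exports the mRNA, stood at 13.2 and 11.9 RPKM in the active and the hibernating subadult and 11.4 and 11.9 RPKM in the active and the hibernating adult. Its mean change was negative by that transcript (-0.043) and positive by the summed reads of its 5 transcripts (0.11). DDX46, which acts on U2 before the spliceosome forms, went from 8.33 to 12.1 RPKM (subadult) and from 7.42 to 9.53 RPKM (adult), and DDX20, a partner of SMN in snRNP assembly, went from 4.78 to 5.42 RPKM (subadult) and from 3.95 to 4.98 RPKM (adult), both without overlap. DDX19A and DDX19B, near-identical proteins of mRNA export, had mean changes of 0.016 and 0.030, and their reads cannot be told apart with certainty.

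Of the remaining DEAD-box genes, DDX54 went from 15.4 to 22.7 RPKM (subadult) and from 18.4 to 28.3 RPKM (adult), DDX31 from 2.22 to 3.30 RPKM (subadult) and from 2.56 to 3.80 RPKM (adult) and DDX56 from 7.07 to 8.06 RPKM (subadult) and from 6.41 to 8.41 RPKM (adult), each with separated states. DDX18, DDX24 and DDX49 were also higher without overlap, with mean changes of 0.25, 0.36 and 0.28, and DDX52 was higher in each bear (0.32) with overlapping states by its most-read transcript. The other of its 2 transcripts and its summed reads separated the states upward. DDX27 stood at 2.33 and 1.49 RPKM in the active and the hibernating subadult and 3.00 and 3.17 RPKM in the active and the hibernating adult, lower in the subadult and slightly higher in the adult. DDX50 and DDX51 were lower in each bear with overlapping states, at mean changes of -0.21 and -0.14. In all, 9 of 17 DEAD-box genes lay above and 0 below, against 35.8% and 8.11% of all genes. With the median ratio 6 lay above and 1 below, against 20.4% and 17.1%. The reads of the class went from 698 to 769.7 reads per M (subadult) and from 647 to 784 reads per M (adult).

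Of the DEAH-box helicases, DHX15 (isotig18517), which takes the spent spliceosome apart and was the leading gene of the 6, went from 5.74 to 6.95 RPKM (subadult) and from 6.02 to 9.22 RPKM (adult). DHX36 (isotig44152), which resolves G-quadruplexes, went from 2.28 to 2.91 RPKM (subadult) and from 2.15 to 3.04 RPKM (adult), also with separated states. DHX9 (isotig39610), a helicase of transcription and RNA structure, went from 2.39 to 1.61 RPKM (subadult) and from 1.93 to 1.74 RPKM (adult), with both hibernating values below both active ones. Its level was low and its transcript, of 510 bases, was short. Over the class, 2 of the 6 genes lay above and 1 below as deposited, against 35.8% and 8.11% of all genes. With the median ratio 2 lay above and 3 below, against 20.4% and 17.1%. DHX16, which remodels the spliceosome before the first step of splicing, and DHX29, of translation initiation, had mean changes of 0.078 and 0.020 with opposite signs in the bears.

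Of the 78 genes, 40 had more than 1 transcript. In 25 of these every transcript had a positive mean change, in 1, MBNL1, every transcript had a negative one, and in 14 the signs were mixed. Of all annotated transcripts 65.3% had a positive mean change. The same count over all annotated genes with more than 1 transcript was not made, so these counts have no matching background. The plot of the transcripts of each gene shows narrow ranges in HNRNPA1, HNRNPK and MBNL1, and wider ones in SF1 (0.76 on the log2 scale), RBM3 (0.70) and RBMX (0.67). Transcripts of a gene overlap in sequence, and the sources do not state how a read that fits several was counted, so a common direction within a gene is not independent evidence, and a difference between its transcripts was not tested.

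**Figure D5:**
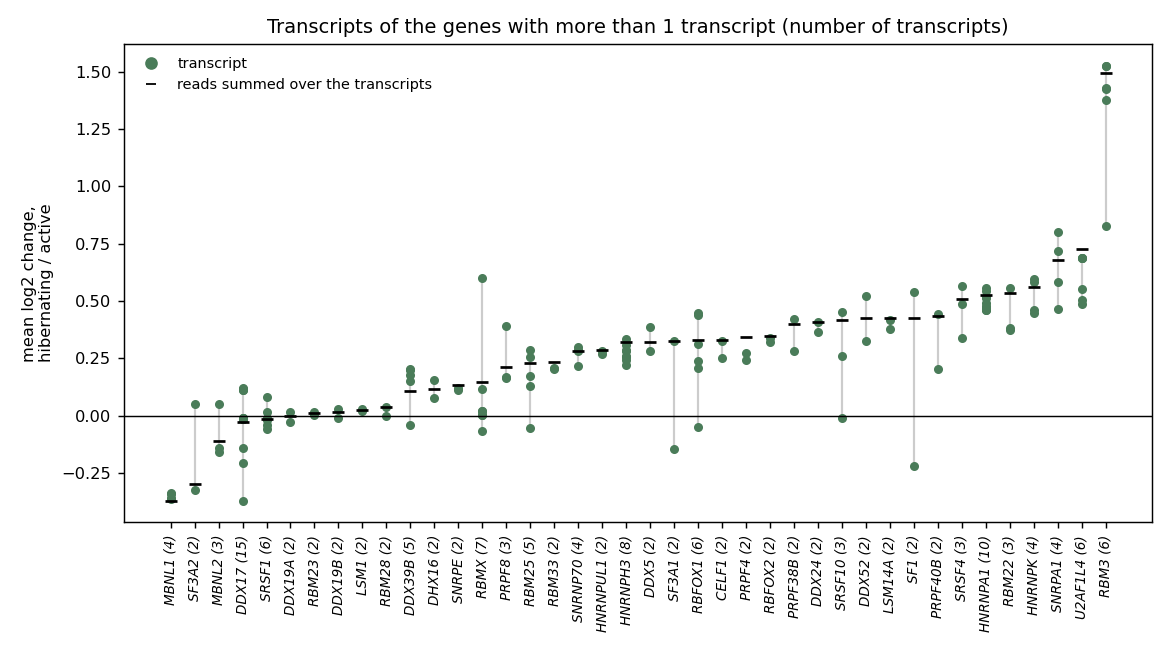
Mean log2 change (y axis) of every transcript (points) of the 40 genes with more than 1 transcript (x axis, number of transcripts in brackets), with a dash at the change of the summed reads of the gene. Points of MBNL1 lie between -0.36 and -0.34, those of HNRNPA1 between 0.46 and 0.56 and those of RBM3 between 0.83 and 1.53.

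Other genes of RNA processing, taken from lists of 122 names that the member rule does not cover, gave 51 found genes, of which 22 lay above, 3 below and 26 neither, against 35.8% above and 8.11% below over all 4873 genes. Their median change was 0.17, close to the 0.15 of all genes, and limma called 0 of them and 0 of all transcripts. With the median ratio 12 lay above and 6 below, against 20.4% and 17.1% of all genes. In the list of the spliceosome and its assembly 11 of 25 genes lay above and 0 below, and with the median ratio 6 and 3, against the same shares of all genes. PPIE, a cyclophilin of the spliceosome, went from 5.66 to 8.57 RPKM (subadult) and from 6.18 to 14.3 RPKM (adult), the 1 gene of these lists with a score over 0.8. SUGP2, SNW1 and WBP11 were also higher without overlap, with changes of 0.72, 0.48 and 0.52.

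Of the kinases that phosphorylate SR proteins, 6 were found, of which CLK2 lay above (0.21) and CLK3 below (-0.24). CLK1 stood at 7.41 and 3.81 RPKM in the active and the hibernating subadult and 4.47 and 6.05 RPKM in the active and the hibernating adult, opposite in the bears. Among other RNA-binding regulators 6 of 11 lay above and 1 below, against the same 35.8% and 8.11%, and with the median ratio 4 and 1, against 20.4% and 17.1%. PTBP1, which represses muscle and neuronal exons, went from 3.70 to 6.66 RPKM (subadult) and from 3.27 to 4.68 RPKM (adult), and PCBP1, a relative of HNRNPK, went from 151 to 136 RPKM (subadult) and from 144 to 134 RPKM (adult). Exon junction and export factors gave 3 above and 1 below of 5 (ALYREF at 0.48, THOC3 at -0.30), and helicases under other names 1 above of 4. The background for both was again 35.8% above and 8.11% below. With the median ratio exon junction and export factors had 1 above and 1 below, against 20.4% and 17.1%. CIRBP, the relative of RBM3, was not found under this name.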

How the data were processed

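Gastrocnemius RNA of 2 bears in 2 states was sequenced in 4 single-end libraries, which entered every comparison; the paired-end and pooled libraries served the authors' assembly and were not analysed here. The authors assembled transcripts de novo, named them by BLAST against human proteins, aligned reads with SOAP2 and deposited RPKM values with transcript lengths. How a read that fits several transcripts was counted, and whether the single-end cDNA had been nuclease-normalized, is not given in the sources used here. The listed transcripts together took 98.0% to 98.2% of the aligned reads of a library. Overlapping transcripts could hold part reads, with 671.5 for isotig16833 and 208.5 for isotig16834 of RBM22 in the active subadult. Each deposited transcript is at 1 RPKM or more in all 4 libraries, so transcripts that fell below 1 in any library are missing. Of the table's columns of sample values 0 were left unused. Which bear is the subadult follows from the column names the study gives the same values.

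Steps between values (RPKM times length) gave the aligned reads, with 94.8% to 97.9% of low values whole within 0.1 read. The trended-prior test of limma 3.58.1 (R 4.3.3) compared log2(RPKM + 0.5) between states over all 26614 transcripts, with Benjamini-Hochberg adjustment. A score after NOISeq used RPKM without a pseudocount. Both were run on simulated data whose changes were larger than the mean change of any member. That run does not show how either performs at the sizes seen here. Each bear gave both states, so animals pair the libraries (the bears' deviations in the 2 states had r = 0.358 across transcripts, which are not independent), and p-values measure the spread between 2 animals. A gene was represented by its transcript with the highest mean RPKM times length. Counts and medians carry no test. Named genes are the highest of each class, a list of 28 genes of interest in muscle or cold (24 found), the 6 largest differences each way and any called member, 30 in all; others were named after their values were seen. Members, classes and lists were chosen with earlier results of these data known. Alternatives, 72 in all, covered pseudocounts of 0.1 and 1, scaling, a mean RPKM of 5, annotated transcripts only, the prior, the replicate block, 1 transcript per gene, thresholds and each library or bear left out. Of 78 gene symbols 73 were found in the RefSeq gene table. Python 3.11.15, pandas 2.3.3, numpy 2.4.6 and matplotlib 3.10.9 were used.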

Additional observations from a re-analysis of the deposited data

How the results depend on the processing

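Of 209 recomputed counts and medians, 137 stayed within 1.5 times the count, or within the spread between the bears for a median, and 72 did not. A reversal was looked for only in the change of RBM3, the 1 called gene, which kept its sign. A class median could change sign without being counted as reversed. With the median ratio that of SR proteins went from 0.017 to -0.135 and that of DEAD-box helicases from 0.11 to -0.030. With 1 transcript per gene the median-ratio medians of these classes stayed positive, at 0.047 and 0.11. limma called 0 members in every alternative run, and of all transcripts tested it called 35 without the hibernating adult and 0 in the others, with 6 to 23 members at an unadjusted p under 0.05 and a lowest adjusted p of 0.153 (without the hibernating adult) to 0.862 (without the active subadult). With the animal as a replicate block it called 0 members, with 23 at an unadjusted p under 0.05 and a lowest adjusted p of 0.264, so the block changed no call. With median-ratio scaling 51 members lay above, 23 below and 0 were 1.5-fold higher in both bears, the members' median was 0.10, and class medians were 0.29 for hnRNPs, 0.12 for U snRNP proteins, 0.25 for branch point factors, 0.14 for PRPF proteins, -0.024 for tissue regulators and 0.031 for RBM proteins. With upper-quartile scaling these were 47, 28 and 0, 0.069, and 0.25 for hnRNPs, 0.083 for U snRNP proteins, 0.22 for branch point factors, 0.11 for PRPF proteins, -0.060 for tissue regulators, -0.0016 for RBM proteins and -0.020 for DEAH-box helicases. At a mean RPKM of at least 5, 57 members lay above of 93 kept, with a median of 0.32, and medians of 0.27 for branch point factors, -0.045 for tissue regulators, 0.55 for RBM proteins and 0.35 for DEAH-box helicases, with fewer members by construction. No share or median over the 9860 transcripts kept by this filter stands beside these values, and the unfiltered backgrounds are no match for them. By 1 transcript per gene the score called 1, 37 lay above, 2 below and 2 were 1.5-fold higher, with medians of 0.32 for hnRNPs, 0.27 for branch point factors and 0.047 for tissue regulators. Of all 4873 genes 35.8% lay above, 8.11% below and 188 genes were 1.5-fold higher in both bears. At 2-fold in place of 1.5-fold 0 members were higher in both bears. No share over all transcripts stands beside the fold counts under the other scalings or at 2-fold, nor one over all genes beside this score count. In alternatives chosen after seeing the data, leaving out RBM3 gave 0 members by the score and 4 that were 1.5-fold higher, plain RPKM ratios gave 11 higher and 0 lower, and the median ratio with 1 transcript per gene gave 20 above, 11 below and a median of 0.093.

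Leaving out 1 library or 1 bear gave 0 to 9 members by the score (0 without the active subadult and 9 without the hibernating subadult), 103 to 159 above (131 without the active subadult and 159 without the subadult), 11 to 57 below (over 1.5 times the count of 5 in each case; with fewer libraries any transcript separates more often, and of all transcripts 44.7% to 70.6% lay above and 16.9% to 42.7% below, against 55.7% to 85.9% and 5.95% to 30.8% of members), 17 to 20 at 1.5-fold higher and 0 to 4 at 1.5-fold lower, the last 2 resting on 1 bear each, and class medians of 0.26 to 0.55 for hnRNPs, 0.25 to 0.53 for branch point factors, 0.24 to 0.36 for PRPF proteins, 0.017 to 0.22 for tissue regulators and 0.057 to 0.29 for RBM proteins. No share over all transcripts stands beside the counts by the score and by fold with a library or bear left out. Of 330 recomputed values of single named genes 80 moved by more than the spread between bears, and 4 of 30 genes (PRPF8, RBM38, RBMX and SNRNP25) changed sign with the scaling, by their most-read transcript. The cause of these moves was not tested. With 1 library per bear and state, the spread within a bear cannot be measured.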
